A study of Mus musculus with 12 samples.

Results

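The genes described here are Ighm, Igkc, Ighg2b, Ighg2c and Jchain, 5 of the 50563 genes in a table of raw read counts from mouse brain cortex. They were picked by symbol, and they were picked with their CTRL against DPAn-6 values in view, so their values in that comparison are given as a description with no test. E4FAD mice carry human APOE4 in both copies (APOE4+/+) and 1 copy of the familial Alzheimer's disease transgenes (5FAD-/+). The line comes from APOE mice on a C57BL/6 background crossed with 5xFAD mice, and all 12 mice of both groups carried it. CTRL held 7 mice gavaged daily with an antioxidant vehicle (2 aged 12 months and 5 aged 14 months), and DPAn-6 held 5 mice gavaged with docosapentaenoic acid n-6, an omega-6 fatty acid, with the same antioxidants (2 aged 12 months and 3 aged 14 months). Females and males were mixed in both groups, and which mouse was which is not labelled. All mice were perfused with buffer at the end, and 1 library was made per mouse.

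An antibody is built of heavy and light chains. The heavy chain's constant region (Ighm for IgM, Ighg genes for IgG, Igha for IgA) sets the class, Igkc is the constant part of the kappa light chain, and Jchain joins IgM or IgA units into larger complexes. B cells rearrange V, D and J segments upstream of these genes, and antibody-secreting plasma cells then transcribe heavy and light chains at very high levels. The healthy brain holds few such cells, and they are mostly found in its borders: the meninges and the choroid plexus.

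Total counts ranged from 15208803 to 26520251 per mouse, so a gene listed at 0 can be bounded only at 3 counts, or 0.113 to 0.197 CPM (counts scaled to a common library total) depending on the mouse. That bound and the intervals below cover counting error only. After edgeR's low-count filter 15688 genes were tested. Its quasi-likelihood test with Benjamini-Hochberg adjustment called 1.55% of them between DPAn-6 and CTRL at an adjusted p below 0.05, with 1.14% lower and 0.408% higher in DPAn-6. The libraries CTRL 2, CTRL 3 and CTRL 5 stood apart in choroid plexus genes. The summed level of that list was 641 to 2591 CPM in these 3 mice against 276 to 347 CPM in the other 4 CTRL mice and 303 to 318 CPM in the DPAn-6 mice.

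The counts of the 5 genes were led by Ighm, which took 90.6% of them over the 12 mice. Ighm (ENSMUSG00000076617, GRCm38 chr12:113418558-113422730, minus strand) had 825, 643, 621, 691, 628, 658 and 1006 counts in CTRL 1 to CTRL 7. In DPAn-6 1 to DPAn-6 5 it had 584, 634, 531, 603 and 1026 counts. Scaled to the library totals, these were 32.2 to 56.4 CPM in CTRL and 26.7 to 39.6 CPM in DPAn-6, and the groups overlapped. All 5 DPAn-6 mice lay below the CTRL mean of 42.0 CPM ± 8.12 (SD, n = 7), whereas they averaged 34.5 CPM ± 5.33 (SD, n = 5). The highest mouse, CTRL 7, and the lowest, DPAn-6 3, were both 12 months old. On edgeR's log2 scale the difference was -0.31 (SE 0.13), and among 14-month mice alone it was -0.12.

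Igkc (ENSMUSG00000076609, chr6:70726435-70726966, plus strand) was far lower and far more uneven than Ighm. CTRL 1 to CTRL 7 had 6, 48, 32, 13, 17, 5 and 18 counts. DPAn-6 1 to DPAn-6 5 had 8, 25, 0, 58 and 8 counts. The highest and the lowest of the 12 mice were therefore both DPAn-6 mice, and the groups overlapped almost fully. CTRL averaged 1.20 CPM ± 1.02 (SD, n = 7), and DPAn-6 averaged 1.19 CPM ± 1.56 (SD, n = 5). The log2 difference was -0.11 (SE 0.75) by edgeR and -1.10 by limma-voom, the method that the paper names. Among 14-month mice alone edgeR gave -1.03. The edgeR difference took either sign as mice were left out. It was 0.31 without CTRL 2, 0.07 without CTRL 3, 0.10 without DPAn-6 1, 0.23 without DPAn-6 3, 0.18 without DPAn-6 5 and -1.21 without DPAn-6 4, and it was 0.84 without the 3 CTRL mice high in choroid plexus genes. Leaving out any other single mouse gave -0.30 to -0.15. The gene Gm30211, which overlaps Igkc, had 1 count in all, so it could share few reads with it.

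The coefficient of variation of Igkc among CTRL mice was 84.9%, where counting error at this depth gives 22.4%. For Ighm it was 19.3% against 3.72%. Both genes thus varied between mice by more than counting error, and the coefficient itself was larger for Igkc.

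**Figure D1:**
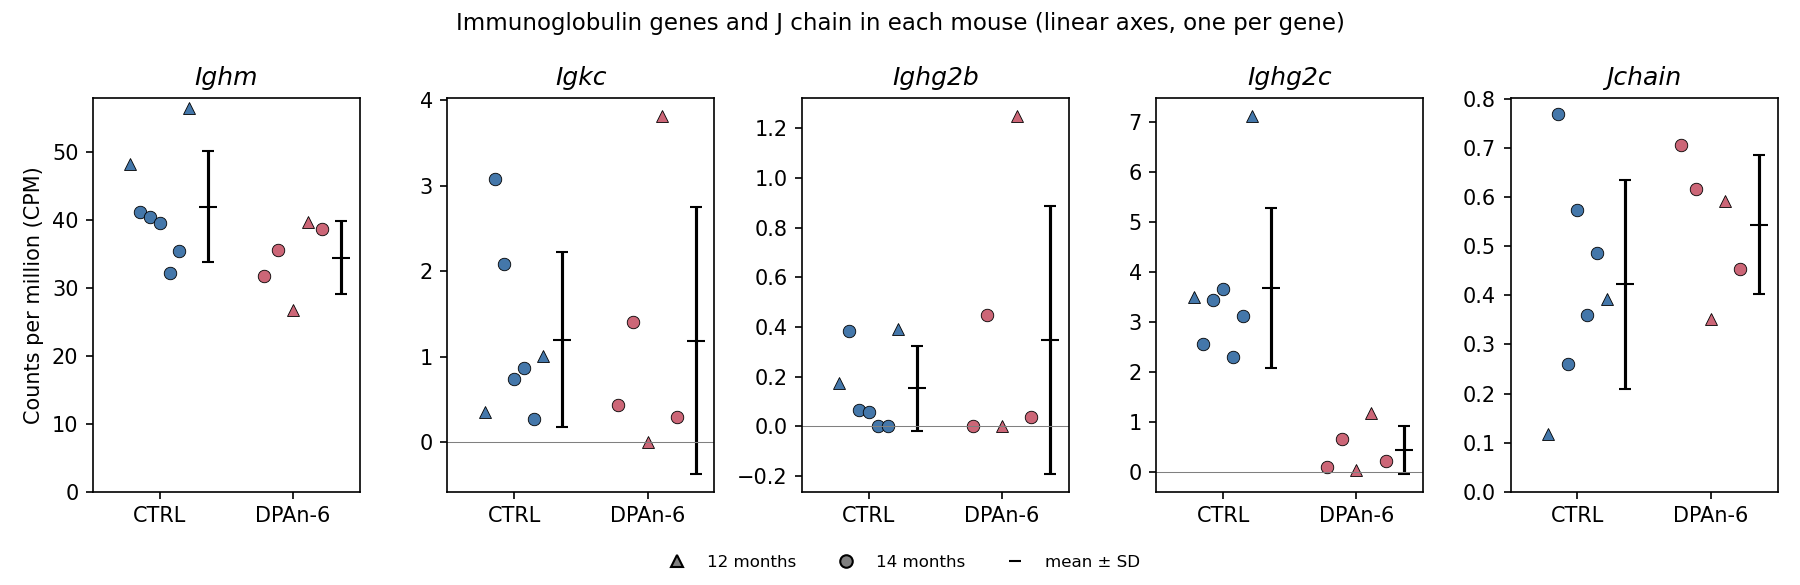
CPM of the 5 genes in each of the 12 mice, on a linear axis per gene, with CTRL in blue, DPAn-6 in red, triangles for 12 months and circles for 14 months. Black bars give the group mean and SD. Ighg2c is the gene in which all 5 DPAn-6 mice (0.0503 to 1.18 CPM) lie below all 7 CTRL mice (2.31 to 7.13 CPM).

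Ighg2c (ENSMUSG00000076612, chr12:113285325-113288932, minus strand) encodes the heavy chain of IgG2c, the form that C57BL/6 mice carry in place of IgG2a. CTRL 1 to CTRL 7 had 60, 40, 53, 64, 45, 58 and 127 counts. DPAn-6 1 to DPAn-6 5 had 2, 12, 1, 18 and 6 counts. Every DPAn-6 mouse was below every CTRL mouse, which fixes the order within each age as well. The 12-month mice had 1 and 18 counts against 60 and 127, and the 14-month mice had 2, 12 and 6 against 40 to 64. CTRL averaged 3.68 CPM ± 1.60 (SD, n = 7), which was 8.21-fold above the DPAn-6 mean of 0.448 CPM ± 0.478 (SD, n = 5). On edgeR's log2 scale the difference was -3.16 (SE 0.48). It ranged from -3.83 without DPAn-6 4 to -2.87 without DPAn-6 3, and it was -2.91 without CTRL 7 and -3.42 without the 3 CTRL mice high in choroid plexus genes.

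Of the 5 genes, Ighg2c was the 1 with no overlap between the groups. Over all genes tested, 1.49% had every DPAn-6 mouse below every CTRL mouse and 1.73% had every one above, and since the genes were picked on this comparison nothing is read from the count. In bulk tissue, fewer cells that carry a transcript and less of it per cell cannot be told apart.

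Ighg2b (ENSMUSG00000076613, chr12:113302965-113307933, minus strand), the neighbouring IgG2b heavy chain gene, did not show the same arrangement. It had 3, 6, 1, 1, 0, 0 and 7 counts in CTRL 1 to CTRL 7 and 0, 8, 0, 19 and 1 counts in DPAn-6 1 to DPAn-6 5. The highest mouse was DPAn-6 4, which was also the highest in Igkc. Counts were too low for edgeR's filter, so 4 of the 5 genes passed it. CTRL averaged -3.17 ± 1.68 (SD, n = 7) in log2 CPM, with 0.5 added to each count, and DPAn-6 averaged -3.07 ± 2.57 (SD, n = 5). Their difference of 0.10 ranged from -0.76 without DPAn-6 4 to 0.66 without DPAn-6 3.

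The other IgG genes were at similarly low counts, Ighg3 with 18, 11, 3, 2 and 2 counts in CTRL 2, CTRL 3, CTRL 4, CTRL 5 and CTRL 7 and 1 count in DPAn-6 4. It was at 0 in the remaining 6 mice. Ighg1 had 1, 3, 6 and 1 counts in CTRL 1, CTRL 4, CTRL 5 and CTRL 7 and 2 counts each in DPAn-6 1 and DPAn-6 5. Ighg2c made up 447 of the 512 IgG counts in CTRL (87.3%) and 39 of the 72 in DPAn-6 (54.2%). These shares are not scaled to exon length, which is 1326 bases for Ighg2c and 2512 to 2678 for the other IgG genes. They are also pooled over mice, and DPAn-6 4 alone held 38 of the 72 counts in DPAn-6, 18 of them of Ighg2c. Per mouse its share was 62.5% to 100% in CTRL and 47.4% to 100% in DPAn-6, where the 100% rests on a single IgG count in DPAn-6 3 (exact 95% interval 2.5% to 100%). The shares overlapped, and the IgG total itself was 53 to 137 counts in CTRL and 1 to 38 in DPAn-6.

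The IgG genes sit next to one another and resemble each other in sequence, so whether reads could be assigned to one of them matters for Ighg2c. Its coding sequence was 85.7% identical to that of Ighg2b, 75.5% to that of Ighg1 and 76.3% to that of Ighg3. The hinge exon, exon 2 of each gene, differs in length between them and is shown for that reason. The sequences are GENCODE M21 transcripts on GRCm38, given 5′ to 3′ on the minus strand of chromosome 12, and capitals mark the in-frame cysteine codons (TGT or TGC), whose residues can bridge the heavy chains.
Ighg2c, chr12:113288263-113288325: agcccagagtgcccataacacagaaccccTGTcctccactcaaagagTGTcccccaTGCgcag
Ighg2b, chr12:113307261-113307326: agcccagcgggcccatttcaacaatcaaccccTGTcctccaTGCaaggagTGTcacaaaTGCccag
Ighg1, chr12:113329844-113329882: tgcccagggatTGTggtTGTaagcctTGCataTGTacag
Ighg3, chr12:113360529-113360576: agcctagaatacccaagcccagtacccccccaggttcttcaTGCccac

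The hinge exons run 63, 66, 39 and 48 bases and hold 3, 4, 4 and 1 such codons in that order. The longest run of coding bases that Ighg2c and Ighg2b share, shown because reads that fall wholly within it belong to either gene, is 78 bases in exon 3 of Ighg2c, chr12:113287869-113287946.
Shared by Ighg2c and Ighg2b: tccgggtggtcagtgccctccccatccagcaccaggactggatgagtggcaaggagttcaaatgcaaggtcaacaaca

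Of the 50-base windows of the Ighg2c transcripts, 94.5% occurred in the transcripts of no other gene, and all shared windows were shared with Ighg2b. For Ighg2b this share was 95.9%. For Ighm, Igkc, Jchain, Ighd and Igha it was 100%. Reads counted for Ighg2c were thus mostly assignable to it, as far as the reference transcripts tell. The reads were counted on the reference allele, and how other alleles of the locus would be counted was not tested.

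Jchain (ENSMUSG00000067149, chr5:88519809-88527891, minus strand) had 2, 12, 4, 10, 7, 9 and 7 counts in CTRL 1 to CTRL 7. In DPAn-6 1 to DPAn-6 5 it had 13, 11, 7, 9 and 12 counts. The groups overlapped, and 4 of the 5 DPAn-6 mice were above the CTRL mean. CTRL averaged 0.422 CPM ± 0.212 (SD, n = 7), DPAn-6 averaged 0.544 CPM ± 0.141 (SD, n = 5), and the log2 difference was 0.32 (SE 0.34). The coefficient of variation was 50.3% among CTRL mice, where counting error gives 37.0%, and 25.9% among DPAn-6 mice, where it gives 31.0%. A spread beyond counting error was thus not detectable among the DPAn-6 mice.

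The remaining constant genes follow for completeness. Ighd, the IgD heavy chain that naive B cells carry beside IgM, had 11 to 19 counts in CTRL and 13 to 32 in DPAn-6, and its log2 difference was 0.44 (SE 0.24, edgeR adjusted p = 0.422). Igha, the IgA heavy chain, had 19 counts in CTRL 2, 13 in CTRL 4 and 0 to 5 in the other 10 mice. The mouse CTRL 2 was thus high in Igha, Ighg3 and Igkc, and it was also the highest in choroid plexus genes. Of the lambda light chain genes, Iglc1 had 9 counts in all, Iglc2 had 2, Iglc3 had 1 and Iglc4 had 0. Ighe, the IgE heavy chain, had 1 count.

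Levels of different genes are here compared per length of exon, whereas shares of counts, such as those of the IgG genes, are not scaled to it. In CTRL the means were 22.2 CPM per kb for Ighm, 2.78 for Ighg2c, 2.26 for Igkc, 0.168 for Jchain and 0.0574 for Ighg2b. Ighg2c and Igkc did not keep their order between mice, since the ratio of Ighg2c to Igkc per base ran from 0.334 in CTRL 2 to 4.65 in CTRL 6. In DPAn-6 the means were 18.3 CPM per kb for Ighm, 2.24 for Igkc, 0.338 for Ighg2c, 0.216 for Jchain and 0.130 for Ighg2b. There the ratio of Ighg2c to Igkc was 0.100 to 0.301 in the 4 mice with an Igkc count. Jchain and Ighg2b overlapped in both groups.

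**Figure D2:**
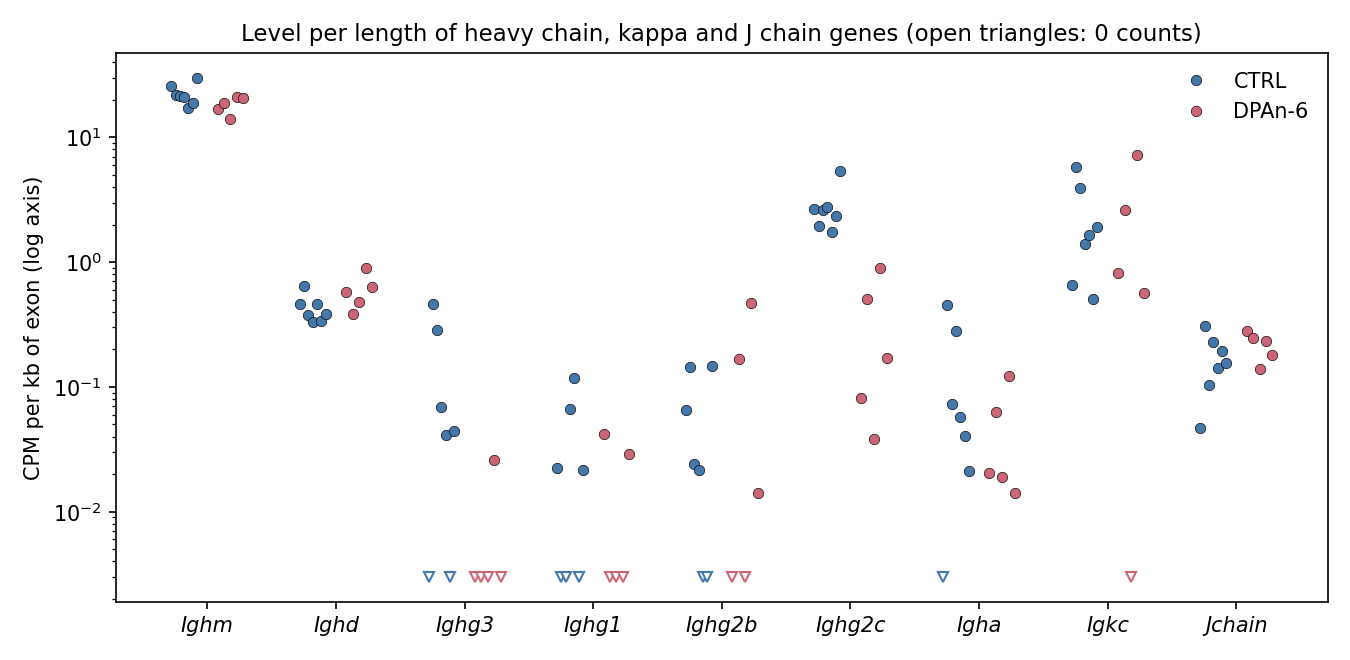
Level of the heavy chain, kappa and J chain genes in each mouse as CPM per kb of exon, on a log axis, with CTRL in blue and DPAn-6 in red. Open triangles at the bottom stand for 0 counts. Ighm is the highest gene in every mouse, and Ighg2c in CTRL (mean 2.78) is near Igkc (mean 2.26).

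A plasma cell makes light chains to match its heavy chains, and these counts were not matched. Summed over the 12 mice, Ighm exceeded Igkc 10.02-fold per base. In single mice with an Igkc count the excess was 2.93-fold in DPAn-6 4 to 38.8-fold in CTRL 1. DPAn-6 3 had 531 counts of Ighm with no count of Igkc, which allows at most 0.151 CPM. Relative to Ighm per base, Ighg2c was 8.85% to 17.96% in CTRL and 0.268% to 4.25% in DPAn-6.

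The variable segments held few counts beside the constant genes. Over the 12 libraries the V segments held 124 counts, of which 33 fell in 19 of 113 Ighv segments, 85 in 29 of 100 Igkv segments and 6 in the 3 Iglv segments. No D segment had a count, and the J segments had 1 to 7 counts per mouse. How well reads can be assigned to V, D or J segments was not tested. The 0 and the low counts are therefore not read as a lack of rearranged transcripts. By mouse, V counts were 2, 16, 4, 12, 5, 7 and 14 in CTRL 1 to CTRL 7 and 2, 17, 1, 38 and 6 in DPAn-6 1 to DPAn-6 5. Both the highest and the lowest mouse were DPAn-6 mice, as for Igkc. Ighv segments gave 0 to 1.79 counts per 100 counts of heavy chain constant genes, a ratio of raw counts that is not scaled to length.

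Over the 12 mice no Ighv or Igkv segment held most of the counts of its locus. In many single mice the counts were too few to tell. The most counted Igkv segments were Igkv19-93, Igkv12-89 and Igkv8-19 with 11 counts each, Igkv6-20 with 10 and Igkv6-15 with 4. The most counted Ighv segments were Ighv1-53 with 7, Ighv3-6 with 5, Ighv2-3 with 3 and Ighv5-17 and Ighv1-80 with 2 each. Among lambda segments Iglv1 had 4 counts and Iglv2 and Iglv3 had 1 each. In DPAn-6 4, the mouse with most V counts, 12 Ighv counts were spread over 8 segments, with 3 in Ighv3-6 (25.0%, exact 95% interval 5.49% to 57.2%). Its 26 Igkv counts were spread over 14 segments, with 6 in Igkv19-93 (23.1%, 8.97% to 43.6%). In CTRL 2 the 12 Ighv counts were spread over 8 segments, with 4 in Ighv1-53 (33.3%, 9.93% to 65.1%). In CTRL 7 the 13 Igkv counts held 5 of Igkv12-89 (38.5%, 13.9% to 68.4%), and in DPAn-6 2 the 13 Igkv counts were spread over 10 segments with no more than 2 in any, Igkv10-94 among them. CTRL 4 had 3 of 7 Igkv counts in Igkv5-43, CTRL 5 had 2 of 5 in Igkv6-20, CTRL 6 had 2 of 6 in Igkv19-93 and DPAn-6 5 had 3 of 6 in Igkv6-20. The other mice had 1 to 3 Igkv counts and at most 3 Ighv counts, too few to rank segments.

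**Figure D3:**
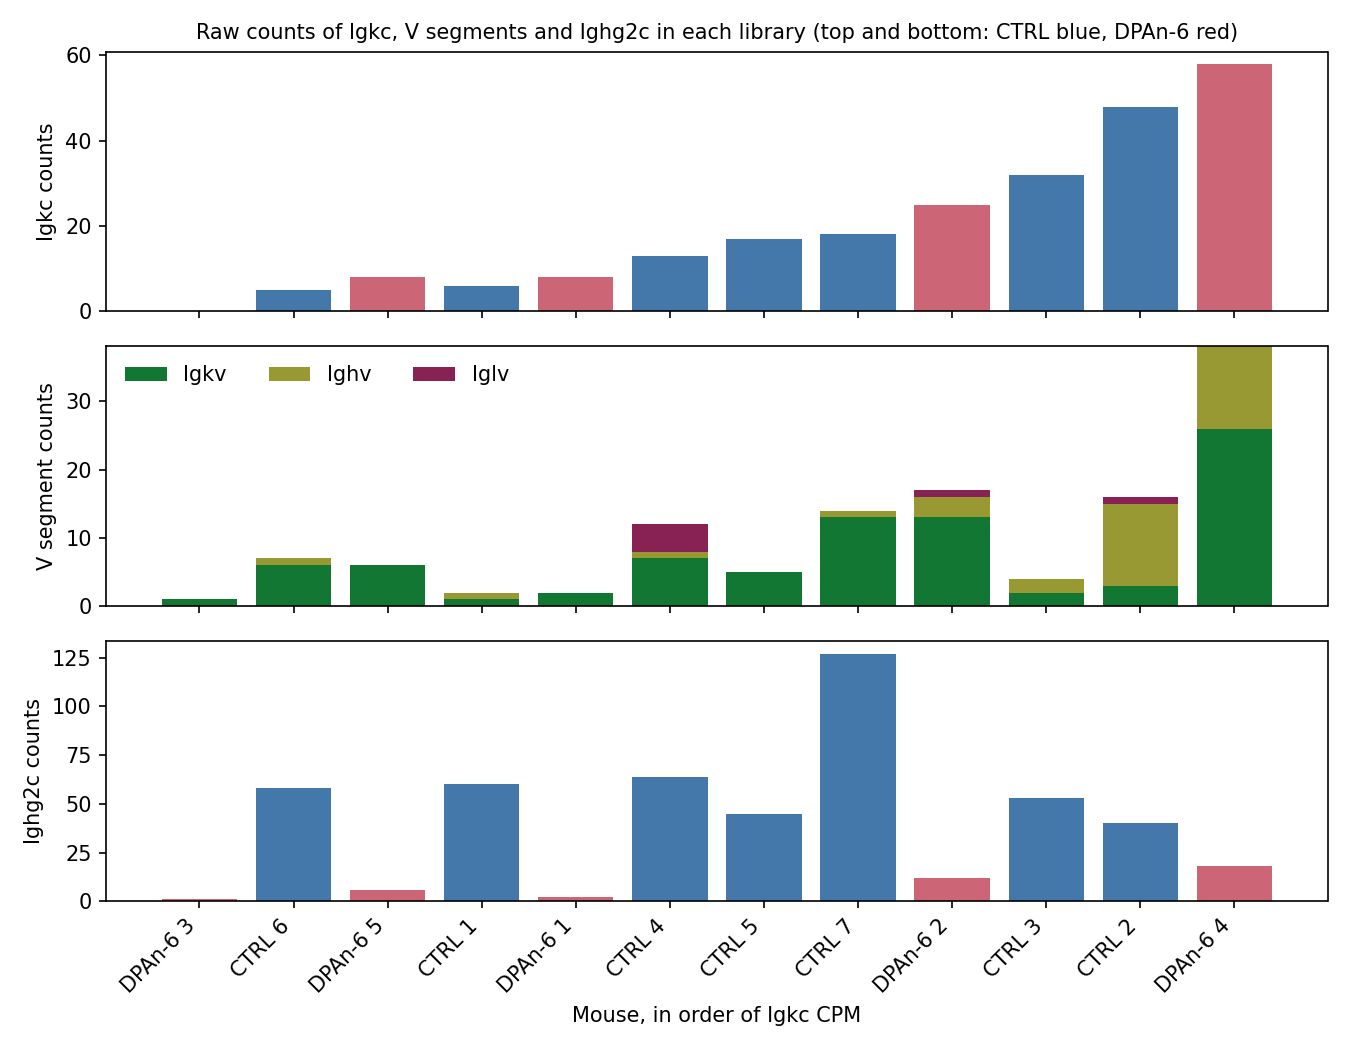
Raw counts of Igkc (top), V segments by locus (middle, stacked) and Ighg2c (bottom) in each library, with mice ordered by Igkc CPM from DPAn-6 3 (0 counts) to DPAn-6 4 (58 counts). V counts are highest in DPAn-6 4 (38), and Ighg2c is low in all DPAn-6 mice wherever they fall in this order.

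Markers of antibody-secreting cells were checked next, since these genes would be read as a plasma cell signature. Mzb1, a chaperone of antibody assembly, had 0 to 4 counts per mouse, and Tnfrsf17, the survival receptor of plasma cells, had 0 to 8. Sdc1, the surface marker CD138, had 5 to 18 counts and Pou2af1, a B cell coactivator, had 0 to 5. Of the B cell receptor partners and surface markers, Cd79a had 0 to 3 counts and Ms4a1 had 0 to 1. These markers were singled out after their values were seen, and others of the same lists had more counts. Prdm1, a transcription factor of plasma cells that other cells use too, had 27 to 54 counts, Irf4 had 6 to 21, the receptor Tnfrsf13b had 39 to 65, Cd38 had 22 to 67 and Cd22 had 29 to 108. Against 531 to 1026 counts of Ighm, Mzb1, Tnfrsf17, Pou2af1, Cd79a and Ms4a1 were at or near 0 and Sdc1 was low in every mouse. The markers were thus mixed, and the 5 genes are called immunoglobulin genes here without assigning them to a cell type. The plasma cell list as a whole summed to 266 to 316 CPM in CTRL and 304 to 326 CPM in DPAn-6, carried by secretory genes that many cells use, such as Xbp1, Txndc5 and Sec11c.

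In the comparison of DPAn-6 with CTRL, none of the 14 tested plasma cell genes other than the members was called. Their median log2 difference was 0.03, against -0.0047 over all genes tested. Xbp1, the transcription factor of the secretory programme, gave 0.16 (SE 0.07, edgeR adjusted p = 0.308), Txndc5, a protein disulfide isomerase, 0.04 (adjusted p = 0.917) and Sec11c, a signal peptidase subunit, 0.24 (adjusted p = 0.196). None of the 4 tested B cell genes was called (median -0.17), with Cd37, a leukocyte tetraspanin, at -0.27 (adjusted p = 0.309), Ebf1 at -0.07 (0.923) and Cd22 at -0.54 (0.306). None of the 4 tested T cell genes was called (median 0.06), with the receptor gene Trbc2 at 0.21 (edgeR adjusted p = 0.521), Cd4 at 0.14 (0.914) and Lck at -0.01 (0.989).

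Genes that keep plasma cells alive or in place were also measured. Of the 8 tested, none was called, and all 8 estimates were below 0 with a median of -0.25. The chemokine Cxcl12 gave -0.19 (edgeR adjusted p = 0.398), the integrin subunit Itgb1 -0.20 (0.531) and the adhesion molecule Vcam1 -0.21 (0.622). The estimates farthest from 0 were those of the chemokine Ccl28 at -0.999 (edgeR adjusted p = 0.169) and the integrin subunit Itga4 at -0.68 (0.166). Cxcl13, a chemokine that attracts B cells, did not pass the filter. It had 12, 1, 10, 36, 15, 10 and 3 counts in CTRL 1 to CTRL 7 and 0, 1, 0, 1 and 0 counts in DPAn-6 1 to DPAn-6 5, and the groups overlapped at CTRL 2. Receptors that bind immunoglobulins gave a median of -0.35 over 6 tested genes, all below 0 and none called. The low-affinity IgG receptor Fcgr3 was at -0.39 (adjusted p = 0.0864), the shared signalling chain Fcer1g at -0.31 (0.272) and the inhibitory receptor Fcgr2b at -0.51 (0.112).

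Some genes of meningeal fibroblasts and border macrophages, though none of the choroid plexus genes tested, were called in the comparison of DPAn-6 with CTRL. The gene lists were chosen with earlier results of these data known, so nothing is read from the share of their genes called. Of 15 tested meningeal fibroblast genes 7 were called, all lower in DPAn-6 (median of the list -0.69), against 1.14% of all genes called lower. They were the matrix genes Lum at -1.23 (edgeR adjusted p = 0.0248), Col1a2 at -0.69 (0.017), Fmod at -0.80 (0.0412) and Mgp at -0.89 (0.0085), with Igf2 at -1.02 (0.0484), the organic anion transporter Slc22a6 at -0.82 (0.0134) and Islr at -0.50 (0.035). The summed level of the list was 182 to 317 CPM in CTRL and 109 to 207 CPM in DPAn-6, so the groups overlapped. A relation between the list and Ighg2c across mice was not tested.

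Of 7 tested border macrophage genes 3 were called, all lower in DPAn-6 (median -0.92), against 1.14% of all genes called lower. They were the mannose receptor Mrc1 at -1.29 (edgeR adjusted p = 0.0026), the haemoglobin scavenger receptor Cd163 at -1.29 (0.0292) and the coagulation factor F13a1 at -1.36 (0.0085). The summed level of the list was 34.9 to 53.1 CPM in CTRL and 23.7 to 33.9 CPM in DPAn-6. The groups did not overlap, but the gap between DPAn-6 1 (33.9) and CTRL 3 (34.9) was narrow. Among single genes tested, 1.49% had every DPAn-6 mouse below every CTRL mouse. This list too was chosen with earlier results known, so nothing is read from its share of genes called or from the gap. None of the 8 choroid plexus genes tested was called (median -2.56), with Enpp2 at -0.59 (edgeR adjusted p = 0.317), the thyroid hormone carrier Ttr at -6.01 (0.0553) and Kl at -2.71 (0.121). None of 5 blood cell genes was called (median -0.21), with the haemoglobin genes Hbb-bs at -0.18 (0.883), Hba-a1 at -0.29 (0.858) and Hbb-bt at -0.11 (0.94). None of 8 cortical neuron genes was called (median 0.03), with Snap25 at 0.11 (0.829), Syt1 at 0.02 (0.948) and Slc17a7 at 0.00 (0.997 unadjusted). No gene of these lists was at 0 in all mice, and the part of border tissue in the Ighg2c values was not tested. Without the 3 mice high in choroid plexus genes, left out after seeing the data, the Ighg2c difference was -3.42. Those mice were chosen by choroid plexus genes only, so this value does not bear on the meningeal or macrophage lists.

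**Figure D4:**
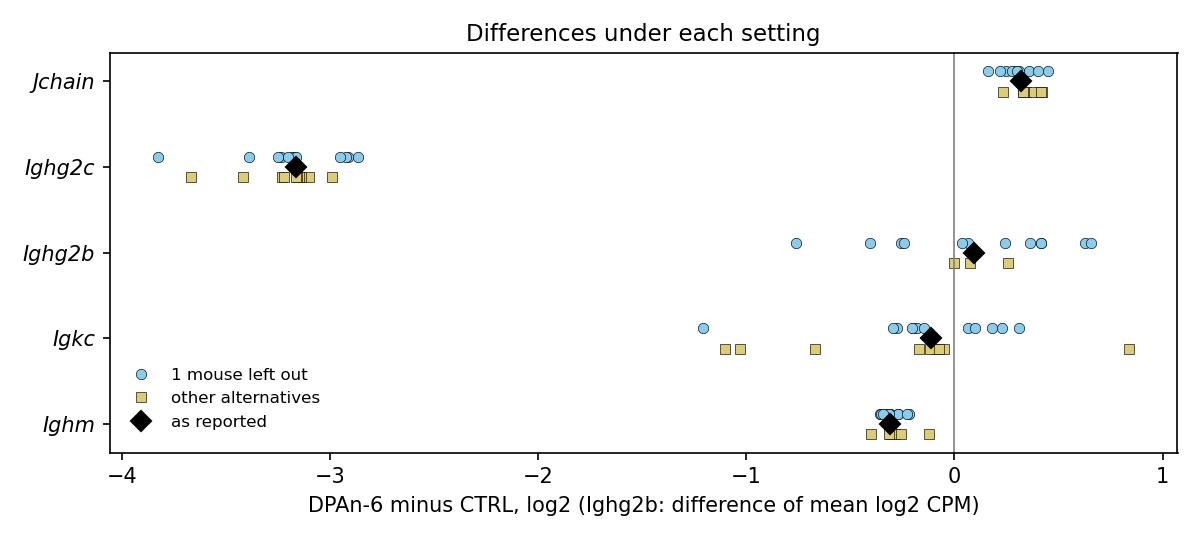
Log2 difference of DPAn-6 minus CTRL for each gene as reported (black diamonds), with 1 mouse left out (blue circles) and under the other alternatives (yellow squares); for Ighg2b it is the difference of mean log2 CPM. Ighg2c stays between -3.83 and -2.87, while Igkc runs from -1.21 to 0.84 and Ighg2b from -0.76 to 0.66.

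Age was a contrast that the choice of the genes did not use, and it was tested with treatment in the model. No gene was called between 14 and 12 months (0% of 15688, edgeR), while 279 had an unadjusted p below 0.05, and DESeq2 and limma-voom also called 0 (287 and 267 unadjusted). Ighm was 26.7 to 56.4 CPM in the 4 mice aged 12 months and 31.7 to 41.2 CPM in the 8 aged 14 months, and the log2 difference of 14 minus 12 months was -0.22 (SE 0.13, edgeR adjusted p = 1.0). For Igkc it was -0.21 (SE 0.85), for Ighg2c -0.80 (SE 0.40) and for Jchain 0.59 (SE 0.36), each with an adjusted p of 1.0. Without treatment in the comparison, the mean log2 CPM of 14 minus 12 months differed by -0.17 for Ighm, 0.95 for Igkc, -1.51 for Ighg2b, 0.01 for Ighg2c and 0.61 for Jchain. For Igkc the sign was opposite to that of the edgeR fit, and for Ighg2c the difference was near 0. An edgeR fit with no treatment term gave -0.16 for Igkc and -0.57 for Ighg2c. The averages thus differed from edgeR by more than the treatment term. An exact, two-sided permutation test of the differences in mean log2 CPM went over all 495 splits of the mice by age. The permutation gave unadjusted p = 0.356 for Ighm, 0.485 for Igkc, 0.251 for Ighg2b, 0.978 for Ighg2c and 0.186 for Jchain. The smallest possible p was 0.00404. This permutation takes no account of treatment, and for Ighg2c, whose treatment groups lay 3.57 apart in mean log2 CPM, the spread it sets the ages against holds that gap. The edgeR fit with treatment gave Ighg2c an unadjusted p of 0.0653. The age groups overlapped for all 5 genes.

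The genes were next compared with one another across mice, in 10 relations of log2 CPM. The level of Igkc rose with the summed V segments over the 12 mice (Pearson r = 0.80, permutation p = 0.00133, adjusted 0.0133; Spearman rho = 0.78, p = 0.00383), and r was 0.62 without DPAn-6 3 and DPAn-6 4. Igkc also rose with Ighg2b (r = 0.69, permutation p = 0.00898, adjusted 0.0449; rho = 0.76, p = 0.00543), with r = 0.58 without the same 2 mice. For Igkc and Igha r was 0.60 (permutation p = 0.0381, adjusted 0.0762; rho = 0.75, p = 0.00705) and 0.70 without them. The relation of Igkc to Igha did not pass after adjustment, and CTRL 4, with 13 Igha counts, had 13 Igkc counts and 1 Ighg2b count. Each pair was measured in the same libraries and at low counts. Igkv segments held 68.5% of the V counts, and they form the variable part of the chain whose constant part is Igkc. The relation of Igkc to the V segments is thus largely between parts of the same chain, and its p-value is not read as separate support.

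Ighm was less closely related to Igkc (r = 0.51, permutation p = 0.0918, adjusted 0.153; rho = 0.52, p = 0.0885), and r fell to 0.14 without DPAn-6 3 and DPAn-6 4, so it rests on those mice. For Ighm and Ighg2b r was 0.63 (permutation p = 0.0258, adjusted 0.0645; rho = 0.73, p = 0.00926), and 0.53 without DPAn-6 3 and CTRL 7. Jchain was related to none of Igkc (r = 0.30, permutation p = 0.319; rho = 0.37, p = 0.236), Ighm (r = -0.28, p = 0.368; rho = -0.13, p = 0.688) and Ighg2b (r = 0.12, p = 0.717; rho = 0.31, p = 0.321) at this number of mice, with adjusted p from 0.456 to 0.797. Ighg2c, whose groups do not overlap, was compared within the 7 CTRL mice only. There it gave r = 0.84 with Ighm (exact permutation p = 0.0185, adjusted 0.0617; rho = 0.64, p = 0.139), which fell to 0.19 without CTRL 7 and CTRL 5 and so rests on them. With Igkc it gave r = -0.09 (exact permutation p = 0.85; rho = -0.14, p = 0.783), and -0.48 without those 2 mice.

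The 10 genes whose log2 CPM was most like that of the 5 genes summed, among 17107 genes with at least 60 counts and over the 12 mice, were Apcdd1 (r = 0.88), Acss1 (0.87), Lrmp (0.85), Dapp1 (0.84), Gpsm3 (0.84), Fzd5 (0.84), Hbegf (0.84), Irf8 (0.82), Arhgap30 (0.82) and Tbx3 (0.82). Among them, Irf8 is a transcription factor of myeloid cells and microglia, and Hbegf is a growth factor of the EGF family. All 10 values share the library and its depth with the sum, which is nearly all Ighm. They are the highest of 17107 correlations over 12 mice, and how many genes would reach them by chance was not tested. Nothing is read from the names on the list. Matched to Igkc alone, the nearest genes were Rbpms2 (r = 0.89), Ccdc3 (0.88) and Dnah7b (0.85), and 0 of the 10 nearest were shared with those of the sum. Of the 10 nearest to Igkc by Pearson r, 1 was among the 10 nearest by Spearman rho, against 7 for the sum, so the genes nearest Igkc depended on the measure.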

How the data were processed

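RNA-Seq was performed on cortex of 12 E4FAD mice, with 1 library per mouse. The authors selected poly(A) mRNA, prepared KAPA mRNA HyperPrep libraries, aligned reads with STAR (version 2.5.3a in the submitters' processing notes) to GRCm38 and deposited unnormalized read counts for each gene. No source used here states the strand setting, and overlapping genes on opposite strands could share reads. Authors' GeneCounts keep uniquely mapped reads only, which lowers counts of near-identical sequences.

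Gene names, positions and sequences were taken from GENCODE M21 (50339 of 50563 identifiers matched). CPM used the total counts, and log2 CPM had 0.5 added to each count. The test was edgeR 4.0.16 under R 4.3.3 (with TMM, filterByExpr by group, glmQLFit, glmQLFTest) with Benjamini-Hochberg adjustment, without covariate for treatment and with treatment in the model for age. The test scripts were tested on simulated data. Correlations were computed in Python 3.11.15 with scipy 1.17.1, pandas 2.3.3 and numpy 2.4.6 (100000 resamples, or exact permutations for 7 mice), as were exact (Clopper-Pearson) 95% intervals.

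The members and all gene lists were chosen with earlier results of these data known. Genes named are the 5 members, all other immunoglobulin constant genes, list genes with an adjusted p below 0.05 or, where there were none, the 3 most counted, the 5 most counted V segments per locus and the most counted in each mouse with at least 5 counts at a locus, and the 10 genes most like the members' sum (at least 60 counts). The plasma and B cell markers given by counts, Cxcl13, Ccl28, Itga4 and the genes nearest Igkc were named outside this rule, after their values were seen. The paper's methods name limma-voom, which was an alternative (limma 3.58.1). Other alternatives were DESeq2 1.42.0, no TMM factors, no filter, 1 CPM in at least 4 mice and Xist or age added as a covariate. Also used were 14-month mice, a block on replicate numbers, leaving out single mice and, for age, CTRL mice only or no treatment term. Leaving out the 3 CTRL mice high in choroid plexus genes and matching to Igkc alone were added after seeing the data.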

Additional observations from a re-analysis of the deposited data

Results flagged for a closer look

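Of 24 sets of values tested, each 1 gene in 1 group, 2 had a mouse far from the others, and chance flags about 1 in 20. The CTRL 7 mouse stood above the other CTRL mice in Ighg2c, with 127 counts and a log2 CPM of 2.84 (gap over range 0.589). The DPAn-6 4 mouse stood above the other DPAn-6 mice in Ighg3 at a log2 CPM of -3.34 (gap over range 0.76), which rests on 1 count against 0 in the other 4.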

How the results depend on the processing

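The count of 243 genes called between DPAn-6 and CTRL was 696 by DESeq2, 9 among 14-month mice, 541 without the 3 CTRL mice high in choroid plexus genes (added after seeing the data) and 64 to 953 as each mouse was left out, lowest without DPAn-6 3 and highest without CTRL 3. With the replicate number as a replicate block it was 79. The numbers are shared labels only: same-numbered mice correlated at -0.12 to 0.22 in their deviations and 0 of 5 DPAn-6 mice correlated best with their own number. The count for age was 0 under all 21 alternatives. The age difference of Igkc (-0.21) turned to 0.86 by limma-voom, 1.03 in CTRL mice only, 0.01 without DPAn-6 1, 0.10 without DPAn-6 5 and 1.46 without DPAn-6 4 (range as each mouse was left out -0.68 to 1.46), and no setting brought its adjusted p below 0.979. The cause of these shifts was not tested. For treatment, Ighg2c (-3.67 to -2.99 under alternatives that left no single mouse out) and Ighm (-0.40 to -0.12) kept their direction, as did Jchain (0.16 to 0.45), which failed the filter under 3 alternatives and has no value there. At 0 to 58 counts per mouse, depth limits Igkc, Ighg2b, Jchain and all V segments. It also limits Ighg2c in the DPAn-6 mice, at 1 to 18 counts, so the size of the Ighg2c difference rests on few counts in that group.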

Other observations

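The genes on either side of the heavy chain locus on chromosome 12 were looked at after their values were seen. None of the 5 tested genes nearest Ighg2c on the centromeric side (Mta1, Crip2, Crip1, Tedc1 and Tmem121) was called between DPAn-6 and CTRL, with log2 differences of 0.04 to 0.29. Of the 5 on the telomeric side, Vipr2, the receptor of vasoactive intestinal peptide, was higher in DPAn-6 (1.20, SE 0.26, edgeR adjusted p = 0.0308). Zfp386, Wdr60, Esyt2 and Ncapg2 were not called (-0.14 to 0.16). Over all genes tested 1.55% were called, with 0.408% higher in DPAn-6. Vipr2 lies at chr12:116077726-116146261, far from Ighg2c at chr12:113285325-113288932, and a link between these genes was not tested.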
